A study of Homo sapiens with 26 samples.

Results

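The tubulin genes are the subject here, namely the 4 alpha-tubulin genes TUBA1A, TUBA1B, TUBA1C and TUBA4A and the 6 beta-tubulin genes TUBB, TUBB2A, TUBB2B, TUBB3, TUBB4B and TUBB6. They are a list of 10 names, found by gene symbol among the 63086 genes of the count tables. They were chosen by name, with earlier results of these data known. The RNA came from HCT116 cells, a human colorectal carcinoma line, as poly(A) RNA of clarified lysates that also served as the input of an IGF2BP1 immunoprecipitation. The cells carried OsTIR1 under tetracycline control, had IGF2BP2 and IGF2BP3 knocked out, and expressed the RNA-binding protein IGF2BP1 with an mCherry tag from a lentivirus. IGF2BP1 was wild type (WT) or a mutant. S181E and Y396E place a glutamate, as a mimic of phosphate, at a known phosphorylation site in the first and the second disordered linker, and RQ replaces arginines (R167Q, R168Q, R174Q and R178Q). Each population received PBS as control or 500 µM sodium arsenite, an oxidative stress, for 2 h. This gave 8 groups of 3 libraries from dishes grown independently, and 2 further libraries came from parental HCT116 cells, 1 control and 1 with arsenite. Each WT or mutant population was 1 pool of sorted cells, so an effect of the mutation and one of the population cannot be told apart.

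Alpha- and beta-tubulin form the dimer from which microtubules are built. Cells keep the pool of free dimers in check partly through the stability of tubulin messages. When free dimers are in excess, the factor TTC5 recognises the first residues of a nascent tubulin chain at the ribosome. It then brings in SCAPER and the CCR4-NOT deadenylase complex, which leads to decay of the message. Alpha- and beta-tubulin messages that share this start are therefore known to move together when the free pool changes, while transcription sets the level of each gene on its own. The count tables hold RNA levels only, so decay and transcription were not measured here. In RNA from bulk samples, fewer cells of a kind and less RNA per cell cannot be told apart.

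The coding starts are shown because the first codons write the residues that TTC5 reads. Capitals mark the start codon and the next 3 codons, and the sequences are those of GENCODE release 44 transcripts. TUBG1, which codes for gamma-tubulin, is given for contrast.
TUBA1A, TUBA1B and TUBA1C: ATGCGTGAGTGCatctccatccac
TUBA4A: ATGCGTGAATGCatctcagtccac
TUBB: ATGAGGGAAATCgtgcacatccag
TUBB4B: ATGAGGGAAATCgtgcacttgcag
TUBB2A: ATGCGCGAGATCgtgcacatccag
TUBB2B: ATGCGTGAGATCgtgcacatccag
TUBB3 and TUBB6: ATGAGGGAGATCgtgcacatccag
TUBG1: ATGCCGAGGGAAatcatcacccta
All 4 alpha-tubulin genes wrote methionine, arginine, glutamate and cysteine, and all 6 beta-tubulin genes wrote methionine, arginine, glutamate and isoleucine. The arginine codon was CGT in every alpha-tubulin gene and AGG in TUBB, TUBB3, TUBB4B and TUBB6. TUBB4A, a further beta-tubulin gene, had the beta start, and TUBG1, TUBD1 and TUBE1 did not.

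The genes lie at separate places in hg38 with a cluster on chromosome 12. TUBA1B (ENSG00000123416.15, minus strand) spans chr12:49127782-49131395, TUBA1A (ENSG00000167552.16, minus strand) chr12:49184686-49189324 and TUBA1C (ENSG00000167553.17, plus strand) chr12:49227926-49274600. TUBA4A (ENSG00000127824.15, minus strand) spans chr2:219249710-219254608. TUBB (ENSG00000196230.14, plus strand) spans chr6:30717435-30725538, and TUBB4B (ENSG00000188229.6, plus strand) chr9:137241287-137243707. TUBB2A (ENSG00000137267.7, minus strand) at chr6:3153666-3157544 and TUBB2B (ENSG00000137285.11, minus strand) at chr6:3224277-3227653 are neighbours, with 98.1% identical coding bases. TUBB3 (ENSG00000258947.8, plus strand) spans chr16:89921851-89938761 and TUBB6 (ENSG00000176014.13, plus strand) chr18:12308234-12337225. Coding identity was 85.0% to 97.3% over the 6 pairs of alpha-tubulin genes, 81.3% to 98.1% over the 15 pairs of beta-tubulin genes and 58.5% to 62.2% between the families.

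Near-identical copies limited what single reads of 100 bases could assign. The authors' counting left out reads that matched several places, and 100-base stretches shared with another gene made up 55.6% of TUBB2A, 48.7% of TUBB2B and 37.2% of TUBA1B. The share was at most 10.6% in TUBA1A, TUBA1C, TUBA4A, TUBB, TUBB4B and TUBB6. The values of TUBB2A, TUBB2B and TUBA1B are therefore uncertain as levels, and a part of their RNA was not counted. TUBB3 had a second limit, since 51.7% of its exon bases lie in exons of a readthrough gene on the same strand, where reads count for neither gene.

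Totals ranged from 22508145 to 50834401 counts per library. The library labelled Y396E arsenite replicate 3 stood apart, with counts for 13897 genes against at least 20850 in every other library, and results that rest on it are given with and without it. Levels are given as CPM, the count of a gene over the TMM-scaled library total. A rise or fall is therefore relative to the other poly(A) RNA of the clarified lysate, and RNA removed by the clearing was not measured. TMM scaling itself brings the median change over all tested genes close to 0. The transgene RNA, IGF2BP1, had 12.1 ± 2.27 CPM (SD, n = 3) in control cells of WT, beside values for S181E (18.6 ± 1.56), Y396E (16.5 ± 1.18) and RQ (14.4 ± 1.91), and 0.348 CPM in the parental control library. With arsenite it was at 29.2 ± 1.15 CPM in WT, below the 47.1 ± 0.863 of RQ, 43.3 ± 0.688 of S181E and 43.2 ± 1.26 of Y396E. The part of the transgene RNA in the tubulin values was not tested. The RNA of the knocked-out genes was still counted, IGF2BP2 at 62.3 to 91.3 CPM and IGF2BP3 at 109 to 166 CPM, so RNA levels do not check the knockouts. Epithelial markers fitted the labelled line, with EPCAM at 309 to 492 CPM and KRT8 at 823 to 2390 CPM over all 26 libraries. The 6 epithelial markers summed to 3370 to 3850 CPM in the 12 control libraries of the 4 populations and to 4550 to 5710 CPM in the 12 arsenite libraries, and the part of this shift in the arsenite results was not tested. Of 8 neuronal markers, chosen because TUBB3 and TUBB2B are also neuronal tubulins, DCX was at 0 throughout and MAP2 at 3.45 to 9.06 CPM, and the other 6 reached at most 2.25 CPM. The 8 summed to 3.95 to 10.2 CPM over all libraries.

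Divided by exon length, TUBA1B was the most abundant tubulin message in every group, with TUBB4B and TUBB next. In CPM per kilobase of exon (RPKM) in WT control, TUBA1B was at 520.2 ± 16.6, TUBB4B at 245 ± 17.1 and TUBB at 234 ± 25.2 (SD, n = 3). TUBA1C followed at 112 ± 3.28, TUBB6 at 49.1 ± 0.911, TUBB2A at 12.2 ± 1.02, TUBA4A at 6.0 ± 0.349 and TUBA1A at 4.17 ± 0.207 RPKM. TUBB3 and TUBB2B came last, at 0.247 ± 0.0316 and 0.172 ± 0.0586 RPKM. In RPKM the libraries of TUBB4B and TUBB overlapped in control cells of all 4 populations and separated with arsenite, TUBB4B above TUBB in all 12 arsenite libraries. TUBB3 and TUBB2B overlapped in WT control, and each other neighbouring pair in that order was separate over the 3 libraries. The order rests on the exon lengths used, 1563 bases for TUBB4B and 3525 for TUBB. In CPM in WT control, TUBB (826 ± 88.7) lay above TUBB4B (382.5 ± 26.7) and under TUBA1B (846 ± 27.0). In S181E control TUBB (1272 ± 28.4) lay above TUBA1B (1137 ± 39.3).

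**Figure D1:**
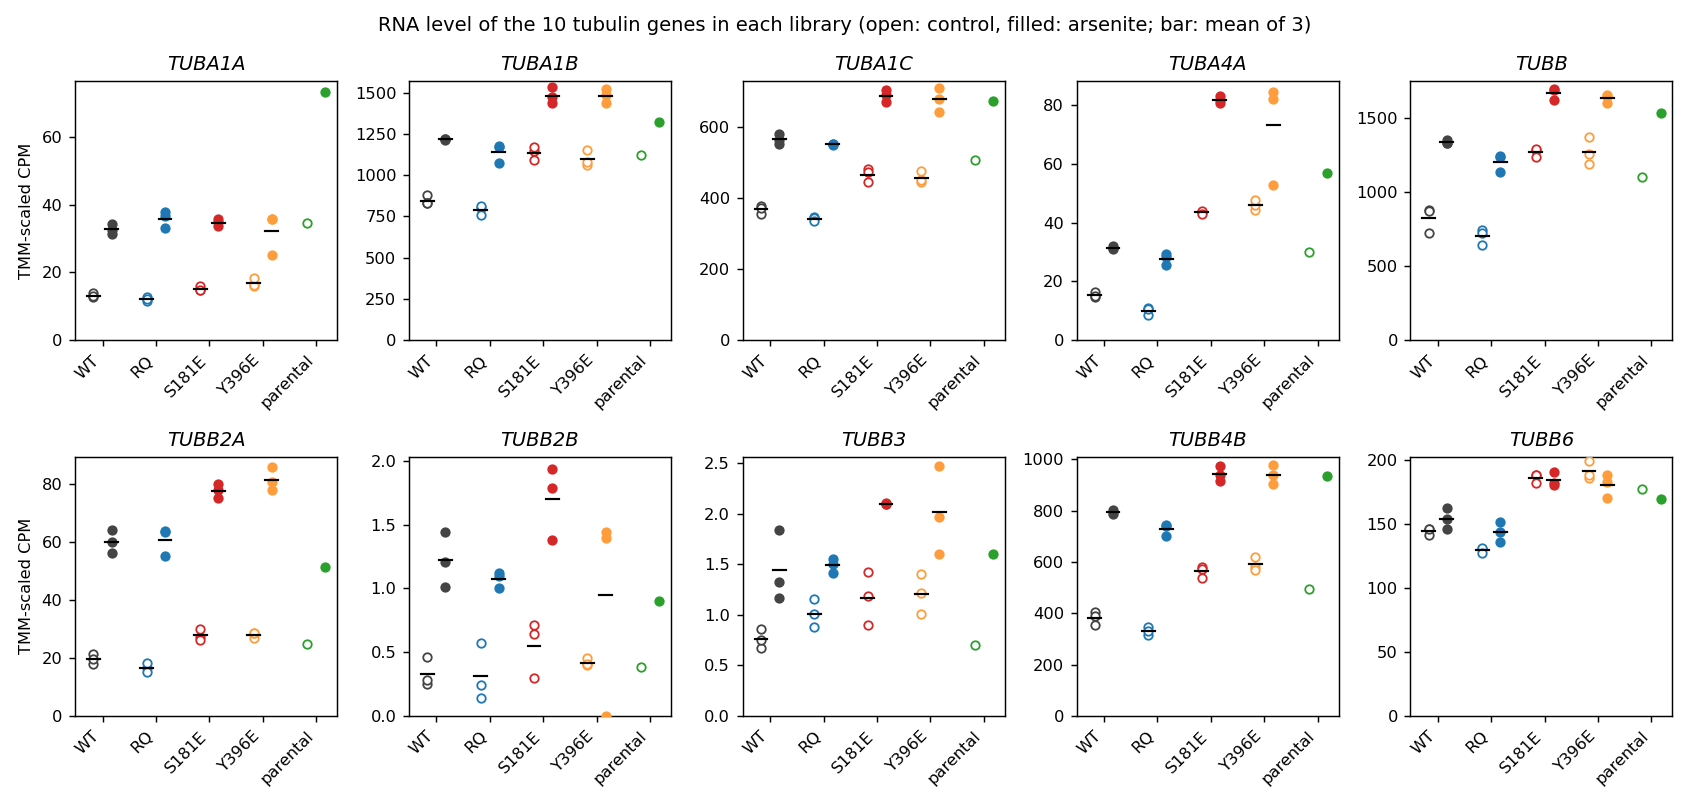
Level of each tubulin gene in each library, in TMM-scaled CPM on an axis from 0, by population. Open points are control and filled points arsenite, and bars are means of 3 libraries; parental cells have 1 library per treatment and no bar. TUBB6 was not called with arsenite in any population, TUBB2A was higher with arsenite in every population, and TUBA4A sat above WT in both phosphomimetic populations.

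The alpha family was 1 gene for the most part, and the beta family was shared by a pair. In WT control TUBA1B made up 81.0% ± 0.341 and TUBA1C 17.4% ± 0.348 of the alpha-tubulin RPKM. TUBB4B made up 45.3% ± 0.672, TUBB 43.3% ± 1.24 and TUBB6 9.12% ± 0.600 of the beta-tubulin RPKM. With arsenite the share of TUBB4B was 51.9% ± 0.166 in WT and that of TUBB6 5.35% ± 0.255. The summed RPKM of the alpha genes was 642 ± 19.6 in WT control and 944 ± 4.46 in WT arsenite, and that of the beta genes 541 ± 44 and 979 ± 6.29. Both sums were higher in every arsenite library than in every control library of the same population.

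The populations stood in the same relation to WT in both sums. In control the alpha sum was 597 ± 16.6 RPKM in RQ, 862 ± 29.4 in S181E and 837 ± 35.5 in Y396E. The beta sum in the same order was 466 ± 25.9, 803 ± 24.5 and 822 ± 43.9. With arsenite the alpha sum was 892 ± 36.2 RPKM in RQ, 1163 ± 32.8 in S181E and 1154 ± 35.3 in Y396E. The beta sum was then 895 ± 32.7, 1190 ± 29.2 and 1179 ± 24.4. The ratio of alpha to beta was between 1.01 and 1.32 in the 12 control libraries and between 0.956 and 1.00 in the 12 arsenite libraries, so the treatments did not overlap. The place of these sums relative to each other rests on the lengths used, among them that of TUBA1B. With length counted in 100-base stretches of no other gene, the alpha sum in WT control was 1022 ± 31.4 RPKM beside 583 ± 47.4 for beta, and the ratios were 1.49 to 1.95 in control and 1.36 to 1.42 with arsenite, which again did not overlap. The share of all counts taken by the 10 genes was lowest in RQ control, at 0.186% ± 0.0139, and highest in S181E arsenite, at 0.533% ± 0.00597, with WT control at 0.218% ± 0.0235.

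**Figure D2:**
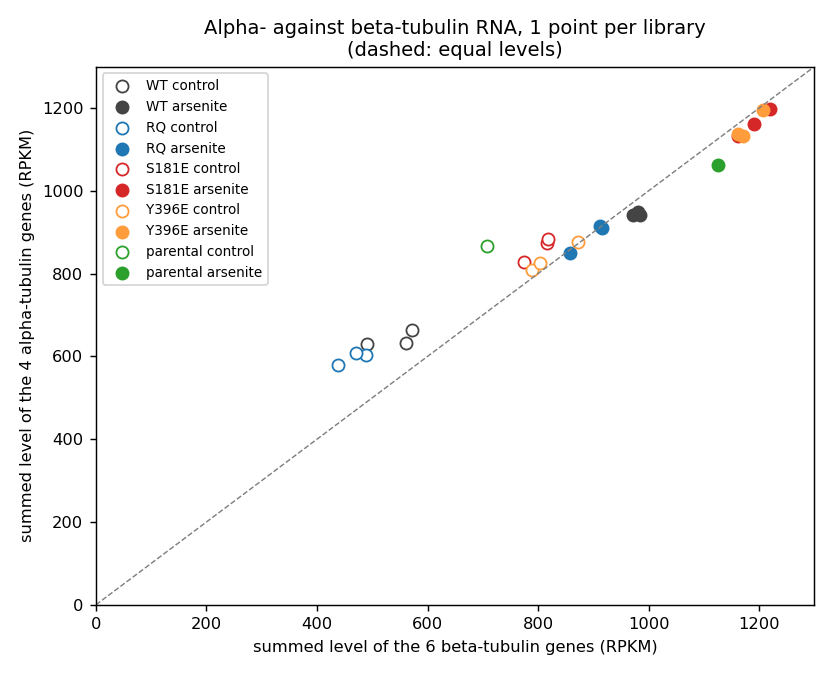
Summed RPKM of the 4 alpha-tubulin genes against that of the 6 beta-tubulin genes, 1 point per library, with a dashed line at equal levels. The 6 control libraries of WT and RQ lie lowest on both axes, every control library lies above the line, and the arsenite libraries lie at or near it with these lengths. With only countable lengths all libraries lie above the line, at ratios of 1.35 to 1.95.

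Arsenite raised 7 of the 8 tubulin genes that passed the filter on low counts in WT cells, in both families, and TUBB6 was the exception. Among the 7, TUBB2A rose most and TUBA1B least. TUBB2A, a beta-tubulin that neurons also use in quantity, was at 21.2, 17.9 and 19.8 CPM in the WT control libraries and at 59.9, 56.1 and 64.2 CPM in the WT arsenite libraries. The groups did not overlap, and the log2 change was 1.61 ± 0.08 (SE, 3.05-fold; edgeR quasi-likelihood test, Benjamini-Hochberg adjusted p = 1.86e-15). Over all tested genes 36.3% were called higher in this comparison, with an adjusted p under 0.05 and a fold above 1.2, and the median log2 change of the 8 tubulin genes was 0.86 beside -0.01 over the 9099 genes tested.

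The abundant genes rose too, TUBB4B by more than TUBA1B and TUBB. TUBA1B, the main alpha-tubulin, was at 877.5, 832 and 830 CPM in control and at 1216, 1222 and 1220 CPM with arsenite. The arsenite libraries were all higher, with a log2 change of 0.53 ± 0.05 (edgeR adjusted p = 1.02e-10). TUBB, the main housekeeping beta-tubulin beside TUBB4B, was at 881, 724 and 874 CPM in control and at 1334, 1351 and 1336 CPM with arsenite. WT control replicate 2 was the lowest of the 6, and the log2 change was 0.70 ± 0.06, or 0.61 to 0.75 with each library left out in turn. TUBB4B was at 404, 353 and 391 CPM in control and at 802, 787 and 795 CPM with arsenite, a log2 change of 1.05 ± 0.05 without overlap.

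TUBA1A and TUBA4A, the scarcer alpha-tubulin genes, rose more than 2-fold. TUBA1A, best known from developing neurons, was at 13.9, 12.6 and 12.9 CPM in WT control and at 34.4, 31.5 and 32.5 CPM with arsenite, a log2 change of 1.32 ± 0.10. TUBA4A, which differs most in sequence from the other alpha genes here, was at 16.4, 14.8 and 15.0 CPM in control and 31.0, 31.2 and 31.9 CPM with arsenite. Its libraries did not overlap and its log2 change was 1.03 ± 0.12 (edgeR adjusted p = 2.63e-08). TUBA1C, close to TUBA1B in sequence, went from 368 ± 10.8 to 564 ± 13.9 CPM (SD, n = 3), a log2 change of 0.62 ± 0.04.

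TUBB6, a divergent beta-tubulin that shares no 100-base stretch with another gene, did not pass the call for arsenite in any population. It was at 146, 141 and 146 CPM in WT control and at 162, 146 and 154 CPM in WT arsenite. The groups overlapped, and the log2 change was 0.09 ± 0.05 (edgeR adjusted p = 0.0791). It was 0.15 ± 0.05 in RQ (adjusted p = 0.00761, under the fold threshold), -0.02 ± 0.05 in S181E and -0.08 ± 0.05 in Y396E.

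The same 7 genes were called higher with arsenite in the other populations. All 7 passed in RQ, beside 37.1% of tested genes called higher, with log2 changes from 0.53 for TUBA1B to 1.87 for TUBB2A. All 7 passed in S181E, beside 32.0%, from 0.38 for TUBA1B to 1.48 for TUBB2A. All 7 passed in Y396E, beside 32.9%, from 0.36 for TUBB to 1.55 for TUBB2A. In each of the 4 populations the arsenite libraries of all 7 genes lay above the control libraries, a separation that 42.7% of tested genes showed in WT and 43.2% in RQ, against 40.4% for S181E and 35.7% for Y396E. The median log2 change of the 8 tubulin genes was 0.96 in RQ, 0.65 in S181E and 0.62 in Y396E, beside medians from -0.03 to -0.01 over all tested genes.

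TUBA1A and TUBA4A in Y396E depended in size on 1 library. TUBA1A was at 35.95, 35.8 and 25.1 CPM in Y396E arsenite and at 16.0, 16.3 and 18.3 CPM in Y396E control, the third arsenite library being the lowest of its group. TUBA4A was at 84.3, 82.1 and 52.6 CPM with arsenite and at 44.2, 46.1 and 47.7 CPM in control, and again the third library was lowest. Log2 changes were 0.93 ± 0.10 for TUBA1A and 0.67 ± 0.11 for TUBA4A, and without that library 1.09 ± 0.07 and 0.86 ± 0.06. Both genes passed the call either way. The other 6 tested members were within 0.04 of their log2 change in Y396E without it.

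**Figure D3:**
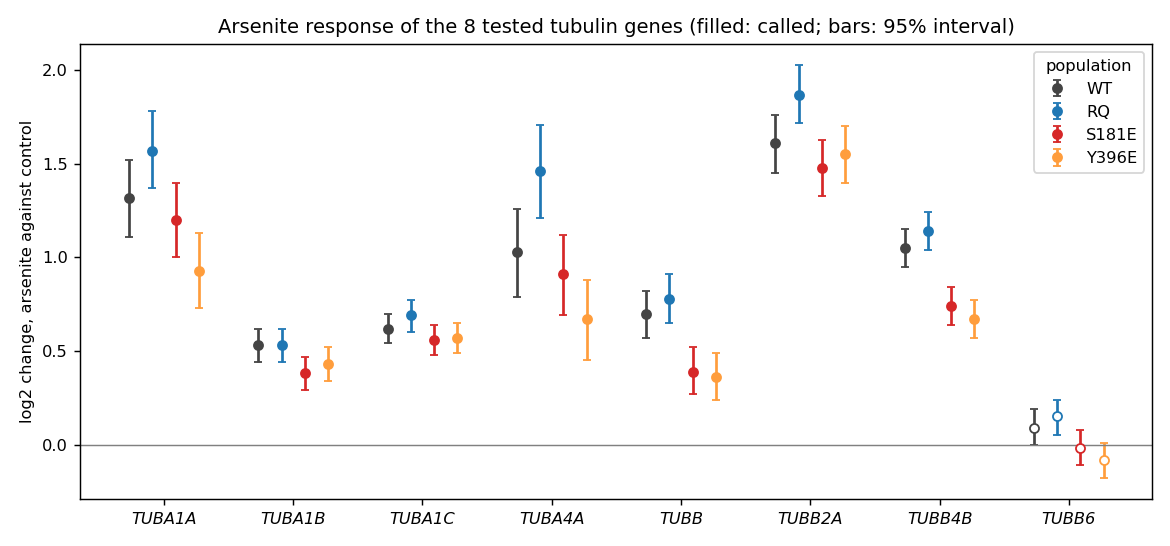
Log2 change of the 8 tested tubulin genes with arsenite in each population, with 95% intervals; filled points passed an adjusted p under 0.05 and a fold above 1.2. TUBB2A reached 1.48 to 1.87, the other called genes 0.36 to 1.57, and TUBB6 lay between -0.08 and 0.15.

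In control cells the phosphomimetic mutants had more tubulin RNA of both families than WT. In S181E 7 of 8 tested members were called higher, beside 15.7% of tested genes, and in Y396E 8 of 8, beside 14.5%. No tested member had a value below WT in either. All 8 genes had their 3 S181E libraries above the 3 WT libraries, where 31.8% of tested genes did, and the same held for all 8 in Y396E, where 29.3% did. The median log2 difference of the 8 genes was 0.46 in S181E and 0.45 in Y396E, beside 0.02 and 0.01 over all tested genes. These comparisons share the WT control libraries.

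TUBA4A differed most. It was at 16.4, 14.8 and 15.0 CPM in WT control, at 43.5, 44.1 and 43.0 CPM in S181E control and at 44.2, 46.1 and 47.7 CPM in Y396E control. Every mutant library was more than 2-fold above every WT library. The log2 difference was 1.5 ± 0.12 in S181E (edgeR adjusted p = 3.93e-10) and 1.58 ± 0.12 in Y396E (edgeR adjusted p = 1.68e-10).

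The abundant genes stood between 1.24- and 1.54-fold above WT. TUBB was at 1284, 1292 and 1239 CPM in S181E control and at 1188, 1259 and 1373 CPM in Y396E control, against 724 to 881 CPM in WT. Its libraries did not overlap with WT, and the log2 difference was 0.62 ± 0.06 in both mutants, or 0.54 in both without WT control replicate 2. TUBB4B differed by 0.56 ± 0.05 in S181E and 0.63 ± 0.05 in Y396E on the log2 scale. TUBA1B, at 1137 ± 39.3 CPM in S181E and 1099 ± 48.0 CPM in Y396E, differed by 0.43 ± 0.05 and 0.38 ± 0.05. TUBA1C differed by 0.34 ± 0.04 and 0.31 ± 0.04.

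TUBB6 and TUBB2A were also higher, and TUBA1A was near the threshold. TUBB6, which arsenite left below the call, was at 188, 188 and 182 CPM in S181E control and at 186, 188 and 199 CPM in Y396E control. It differed from WT by 0.37 ± 0.05 and 0.40 ± 0.05 on the log2 scale, without overlap. TUBB2A differed by 0.50 ± 0.08 in each mutant. TUBA1A, at 15.2 ± 0.734 CPM in S181E and 16.9 ± 1.23 CPM in Y396E, differed by 0.20 ± 0.11 (edgeR adjusted p = 0.12) and 0.36 ± 0.11 (edgeR adjusted p = 0.00787), and without Y396E control replicate 3 the latter had an adjusted p of 0.0546.

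RQ lay on the other side of WT by small amounts. In control all 8 tested members had values under WT, with log2 differences from -0.62 to -0.10 and a median of -0.18, beside 0.00 over all tested genes. Of these only TUBA4A was called, beside 0.429% of tested genes called lower. TUBA4A was at 10.96, 8.55 and 10.5 CPM in RQ control, each under the WT libraries at 14.8 to 16.4 CPM, and its log2 difference was -0.62 ± 0.13 (edgeR adjusted p = 0.0108). The call was lost without WT control replicate 1 (-0.57, adjusted p = 0.0728) and without RQ control replicate 2 (-0.52, adjusted p = 0.0888). Of the other 7, TUBB4B had -0.21 ± 0.05 (adjusted p = 0.0258, under the fold threshold) and TUBB -0.23 ± 0.06 (adjusted p = 0.0565). Without WT control replicate 2, which was low in both, TUBB (-0.32) and TUBB4B (-0.27) were called and 3 members passed in all. The 0.429% is from the fit with every library, and the share without that replicate is not given. RQ control replicate 2 was likewise the lowest of its group, at 641 CPM for TUBB and 315 CPM for TUBB4B. It stayed in the fit without WT control replicate 2. In 5 of the 8 genes the RQ libraries all lay under the WT libraries, where 8.30% of tested genes did.

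**Figure D4:**
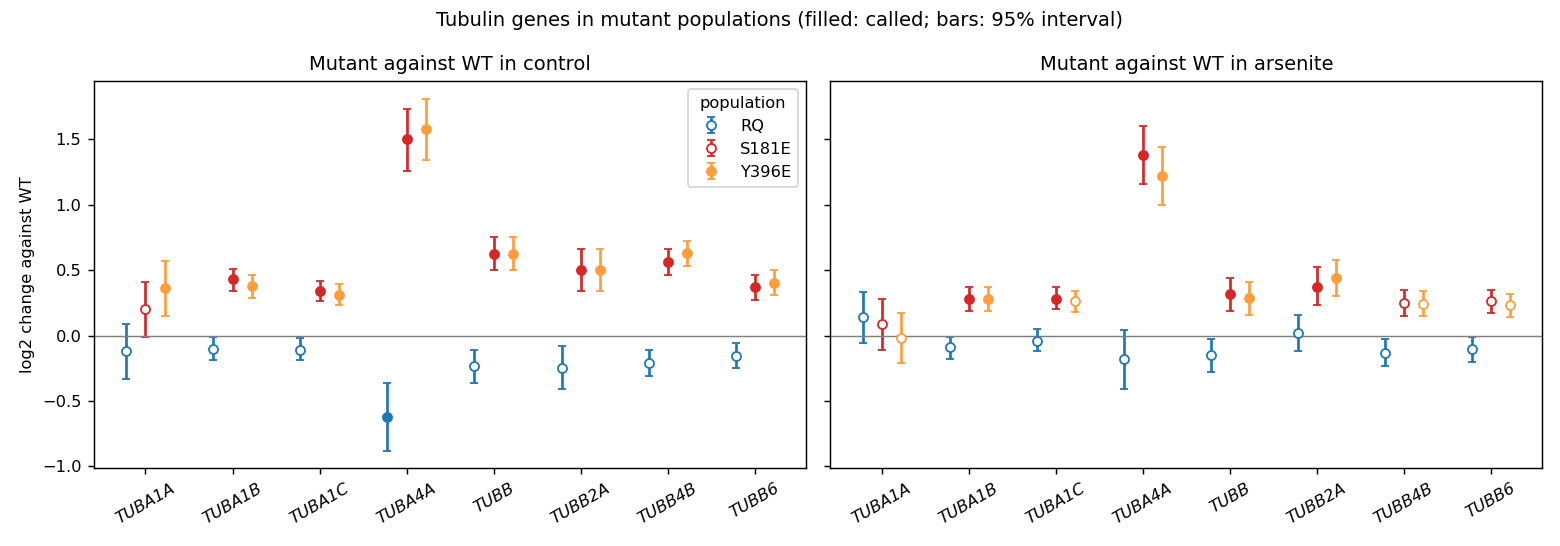
Log2 difference of the 8 tested tubulin genes between each mutant population and WT, in control and with arsenite, with 95% intervals; filled points passed the call. In control S181E and Y396E lie above 0 for every gene and RQ below 0 for every gene, and with arsenite TUBA4A lies at 1.38 in S181E and 1.22 in Y396E, with the other 7 genes between -0.02 and 0.44 in these populations.

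With arsenite fewer members passed the call against WT. In S181E 5 of 8 tested members were called higher, beside 5.32% of tested genes, namely TUBA1B, TUBA1C, TUBA4A, TUBB and TUBB2A. In Y396E TUBA1B, TUBA4A, TUBB and TUBB2A were called, 4 of 8, beside 9.77%. TUBA4A was at 31.0, 31.2 and 31.9 CPM in WT arsenite and at 80.6, 82.9 and 81.6 CPM in S181E arsenite, a log2 difference of 1.38 ± 0.11 without overlap. In Y396E it was 1.22 ± 0.11, and 1.41 ± 0.06 without Y396E arsenite replicate 3. Without that library TUBA1C (0.30), TUBB4B (0.27) and TUBB6 (0.27) were called too, 7 of 8 in all. The 9.77% is from the fit with that library, and the share without it is not given.

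Among the members outside the call in arsenite, TUBB6 and TUBB4B in both mutants and TUBA1C in Y396E lay at or near the fold threshold, and TUBA1A near 0. TUBB6 differed by 0.26 ± 0.05 in S181E (edgeR adjusted p = 0.000216) and TUBB4B by 0.25 ± 0.05 (edgeR adjusted p = 0.000615), and only the fold of 1.2, or 0.26 on the log2 scale, kept them out. In Y396E that fold alone kept out TUBA1C at 0.261 (edgeR adjusted p = 3.45e-05), TUBB4B at 0.244 (0.00056) and TUBB6 at 0.229 (0.000586). TUBA1C was called there by DESeq2, at 0.265. TUBA1A differed by 0.09 ± 0.10 in S181E and -0.02 ± 0.10 in Y396E. The RQ population had no member called against WT in arsenite by edgeR or by DESeq2, beside 1.52% of tested genes called. At an unadjusted p under 0.05 were 4 of 8, beside 11.2% of tested genes. Its log2 differences ran from -0.18 for TUBA4A to 0.14 for TUBA1A.

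The arsenite response itself was smaller in the phosphomimetic mutants for TUBB and TUBB4B, tested as the difference between responses. TUBB rose by 0.39 ± 0.06 in S181E and 0.36 ± 0.06 in Y396E against 0.70 ± 0.06 in WT. The differences of -0.30 ± 0.09 (edgeR adjusted p = 0.0212) and -0.34 ± 0.09 (edgeR adjusted p = 0.01) both passed the call. TUBB4B rose by 0.74 ± 0.05 and 0.67 ± 0.05 against 1.05 ± 0.05, with differences of -0.31 ± 0.07 (edgeR adjusted p = 0.00505) and -0.38 ± 0.07 (edgeR adjusted p = 0.000805). Thus 2 of 8 members were called lower in each mutant, beside 9.41% of tested genes in S181E and 11.1% in Y396E.

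All 8 values of the difference of response were under 0 in both mutants, and 3 of 8 in S181E and 5 of 8 in Y396E had an unadjusted p under 0.05, beside 33.5% and 39.0% of all tested genes. They ran from -0.31 to -0.06 in S181E and from -0.38 to -0.05 in Y396E, with medians of -0.12 and -0.26. The medians over all tested genes were -0.03 and -0.02. In Y396E TUBA1A was at -0.38 ± 0.14 (edgeR adjusted p = 0.0533) and TUBA4A at -0.36 ± 0.16, and without Y396E arsenite replicate 3 they were at -0.23 and -0.17. These differences moved without WT control replicate 2, the lowest library for TUBB. With it left out TUBB was at -0.22 (adjusted p = 0.0698) and TUBB4B at -0.26 (adjusted p = 0.0164, under the fold threshold) in S181E, so no member was called there. In Y396E TUBB was at -0.25 (adjusted p = 0.0312, under the fold threshold) and TUBB4B at -0.33 was still called. For RQ all 8 values were above 0, from 0.01 to 0.44, and none was called by edgeR or by DESeq2, beside 0.220% of tested genes called, with 2 of 8 at an unadjusted p under 0.05, beside 3.66%. The largest was TUBA4A at 0.44 ± 0.18 (edgeR adjusted p = 0.999). With that Y396E library left out of the fit it was 0.43 ± 0.10 and was called (edgeR adjusted p = 0.0354), the Y396E libraries bearing on this comparison through the common spread estimate alone.

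S181E and Y396E, which place the same residue in different linkers, were not told apart by any tubulin gene. In control no member was called by edgeR or by DESeq2, with 0 of 8 at an unadjusted p under 0.05, beside 289 of 9099 tested genes. The log2 difference of Y396E from S181E was 0.08 for TUBA4A (95% interval -0.14 to 0.30) and 0.00 for TUBB (-0.12 to 0.13). With arsenite it was -0.16 for TUBA4A (-0.37 to 0.05) and -0.03 for TUBB (-0.15 to 0.10). Again none was called, with 0 of 8 at an unadjusted p under 0.05, beside 1375 of 9099 tested genes. The widest of the 8 intervals in control was that of TUBA4A, and that of TUBA1A reached 0.36. Of all tested genes 0.00% were called in either comparison.

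TUBB2B and TUBB3, both best known as neuronal beta-tubulins, were scarce in these cells and failed the filter of more than 10 CPM. TUBB2B was at 0.46, 0.25 and 0.285 CPM in WT control and at 1.01, 1.44 and 1.21 CPM in WT arsenite, from at most 74 counts in any library with mCherry-IGF2BP1. TUBB3 was at 0.859, 0.666 and 0.748 CPM in WT control and at 1.17, 1.32 and 1.84 CPM in WT arsenite. All arsenite values of both lay above the control values. A fit with a lower filter, 10 counts in at least 3 libraries, gave log2 changes in WT of 1.83 ± 0.71 for TUBB2B (edgeR adjusted p = 0.0259) and 0.90 ± 0.29 for TUBB3 (edgeR adjusted p = 0.00744). In that fit 30.8% of 12984 genes were called higher. TUBB2B was also called in RQ, beside 31.9% of genes, and in S181E, beside 27.2%, and TUBB3 in S181E and in Y396E, beside 29.2%. TUBB2B had 0 counts in Y396E arsenite replicate 3, against 1.40 and 1.44 CPM in the other 2 libraries of that group. Neither gene was called by edgeR against WT in control cells of RQ (0.978% of genes called), S181E (25.5%) or Y396E (23.6%). At an unadjusted p under 0.05 TUBB3 was higher in S181E and Y396E control, by 0.62 ± 0.29 and 0.65 ± 0.29 on the log2 scale. The share of genes at that unadjusted p in this fit is not given, so these values are not read as a tubulin result. With arsenite the differences of TUBB3 from WT were 0.53 ± 0.27 and 0.47 ± 0.27.

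The parental cells had 1 library per treatment, so their values have no test. From control to arsenite TUBA1A went from 34.8 to 73.5 CPM, TUBA4A from 29.9 to 56.8, TUBB2A from 24.9 to 51.4 and TUBB4B from 496 to 936. TUBA1B went from 1124 to 1323 CPM, TUBB from 1106 to 1536 and TUBA1C from 508 to 672, while TUBB6 was at 177 and 170 CPM. Thus 9 of 10 genes were higher with arsenite, TUBB6 being the exception. Each of the 8 tested genes was higher in the parental control library than in all 3 WT control libraries, and TUBA1A at 34.8 CPM was above every control library of the other populations, the highest of which had 18.3 CPM. No share over all tested genes is given for these counts, so they are not read as particular to the tubulin genes. The parental scaling factors came from a separate run over all 26 libraries.

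Among the other tubulin genes, TUBB4A rose with arsenite as TUBB4B did. Of 12 such genes 5 were tested, all named here with their values known, and the other 7 never passed 0.305 CPM in a library with mCherry-IGF2BP1. TUBB4A, a beta-tubulin abundant in brain, went from 32.5 ± 2.75 to 67.7 ± 2.93 CPM in WT, a log2 change of 1.06 ± 0.07. It was higher in S181E and Y396E control by 0.53 ± 0.07 and 0.62 ± 0.07, and its response differed from that in WT by -0.31 ± 0.10 (edgeR adjusted p = 0.0241) and -0.30 ± 0.10 (edgeR adjusted p = 0.0232). The other tested tubulins code for gamma-, delta- and epsilon-tubulin. With arsenite in WT TUBG1, the nucleating gamma-tubulin, had a log2 change of 0.23 ± 0.04 and was under the fold threshold, and TUBE1 had 0.34 ± 0.08, TUBD1 0.46 ± 0.11 and TUBG2 0.70 ± 0.10, each called. Without WT control replicate 2 the differences of response of TUBB4A were -0.25 and -0.24 and were not called. TUBG1 was called higher than WT in S181E and Y396E control, by 0.35 ± 0.04 and 0.34 ± 0.04 on the log2 scale (edgeR adjusted p = 5.04e-07 and 8.39e-07). TUBG2, TUBD1 and TUBE1 were not called in those comparisons.

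The RNAs of the factors that act on tubulin messages did not follow one direction. TTC5, which recognises the nascent chain, was at 17 ± 0.962 CPM in WT control and 18.1 ± 1.27 CPM in WT arsenite, a log2 change of 0.09 ± 0.15 (edgeR adjusted p = 0.6). It was called lower with arsenite in Y396E alone, at -0.36 ± 0.15 (edgeR adjusted p = 0.0344), and without Y396E arsenite replicate 3 it was at -0.09 ± 0.08 (adjusted p = 0.294) and not called. Against WT in control it was at 0.27 ± 0.15 in RQ, 0.23 ± 0.15 in S181E and 0.26 ± 0.15 in Y396E, none called. Without that library it was called higher in RQ control (0.27 ± 0.07, edgeR adjusted p = 0.0161). S181E and Y396E control, at 0.23 and 0.25, were then under the fold threshold. On library totals alone TTC5 was called higher in S181E (0.39) and Y396E (0.38) control. SCAPER, its partner, failed the filter and lay between 3.37 and 5.07 CPM in the control libraries and between 8.98 and 17.3 CPM in the arsenite libraries, so the treatments did not overlap. Of the 11 tested genes of TTC5 and CCR4-NOT, 7 rose and 3 fell with arsenite in WT, where 36.3% of all tested genes were called higher and 35.9% lower, and the median log2 change was 0.36. CNOT10, a subunit of the complex, rose most at 1.47, and CNOT7, a catalytic deadenylase, fell most, with a log2 change of -0.71.

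All 8 subunit genes of the chaperonin CCT, which folds newly made alpha- and beta-tubulin, rose with arsenite in WT and in RQ, beside 36.3% and 37.1% of all tested genes, and 7 of 8 in S181E and Y396E, beside 32.0% and 32.9%. The median log2 change was 0.99 in WT and 1.04 in RQ, against 0.67 and 0.66 in the phosphomimetic populations, and CCT2 rose most in WT at 1.21. In control 8 of 8 were called higher in S181E than in WT, beside 15.7% of tested genes, and 7 of 8 in Y396E, beside 14.5%, with medians of 0.42 and 0.40, and the median in RQ was -0.08. The difference of response was called lower for 6 of 8 in S181E, beside 9.41%, and 5 of 8 in Y396E, beside 11.1%, with medians of -0.34 and -0.31. On library totals alone this difference was called lower for 8 of 8 in each. Beside that stood 1716 of 9099 tested genes called lower in S181E and 1817 in Y396E.

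Other helpers of tubulin folding had lower medians. In prefoldin, which hands nascent tubulin to CCT, 3 of 5 tested genes fell with arsenite in WT, beside 35.9% of all tested genes, with a median log2 change of -0.40, and PFDN1 fell most at -0.78. Of the 6 tested folding cofactors, which join alpha- and beta-tubulin into dimers, 2 rose and 2 fell, beside 36.3% and 35.9%, with TBCD at 0.83 and TBCA at -0.65.

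Genes of microtubule nucleation, modification and binding were mixed, and all counts stand beside 36.3% of tested genes called higher and 35.9% called lower. Of the 11 genes of the gamma-tubulin ring complex, 7 rose and 3 fell with arsenite in WT, from MZT1 at -0.87 to TUBGCP6 at 1.30. Of 11 tested tubulin modifying enzymes, 4 rose and 5 fell, from the tubulin tyrosine ligase TTL at -0.75 to the deacetylase HDAC6 at 1.35. Of 11 tested microtubule and tubulin binding genes, 7 rose and 1 fell, with the polymerase CKAP5 at 2.22 and the severing enzyme SPAST at -0.46. The list medians were 0.38, 0.23 and 0.54, beside -0.01 over all tested genes.

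**Figure D5:**
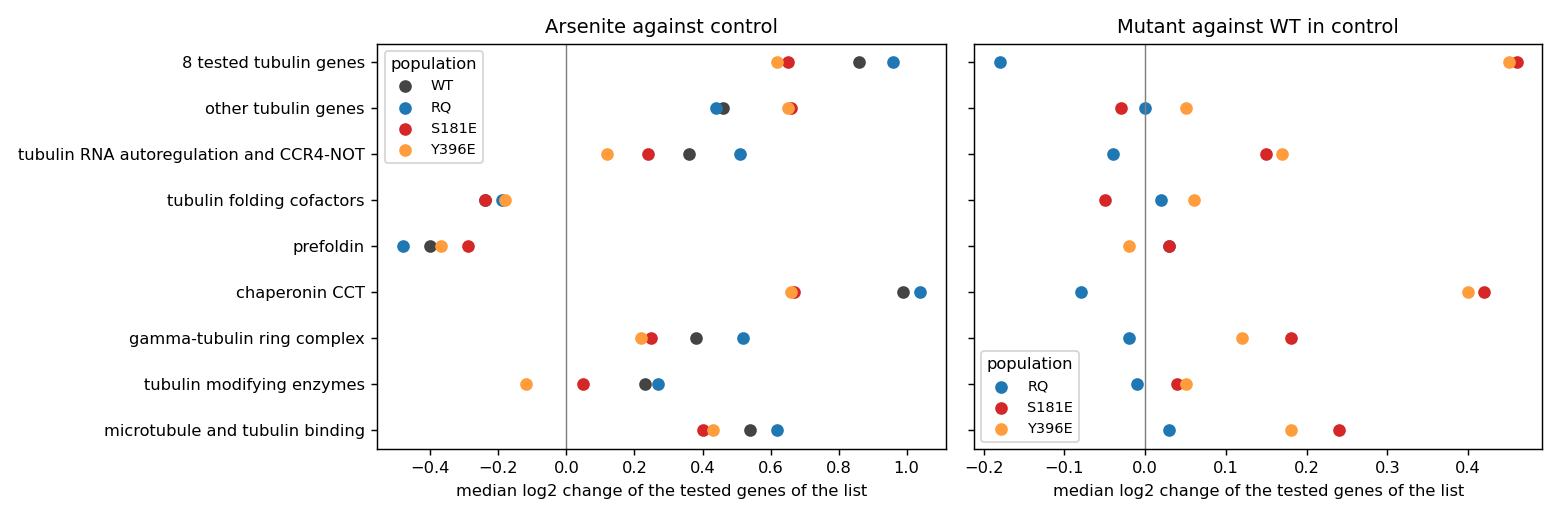
Median log2 change of the tested genes of each list, 1 point per population, for arsenite against control and for each mutant against WT in control. With arsenite the chaperonin CCT lies at 0.66 to 1.04 and the 8 tested tubulin genes at 0.62 to 0.96, and prefoldin lies under 0 in all 4 populations.

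The promoters of 2 of the genes are shown because TUBB2A rose most with arsenite and TUBB4B was the abundant gene with the largest rise. The sequences are those of RefSeq on GRCh38.p14, read 5′ to 3′ on the strand of the gene up to the base before its start. Capitals mark TGACGTCA and TATAAA in TUBB2A (chr6:3157545-3157644, minus strand) and the 3 copies of CCAAT in TUBB4B (chr9:137241037-137241286, plus strand).
TUBB2A: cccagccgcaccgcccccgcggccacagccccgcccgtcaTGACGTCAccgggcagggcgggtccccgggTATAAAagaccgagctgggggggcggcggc
TUBB4B: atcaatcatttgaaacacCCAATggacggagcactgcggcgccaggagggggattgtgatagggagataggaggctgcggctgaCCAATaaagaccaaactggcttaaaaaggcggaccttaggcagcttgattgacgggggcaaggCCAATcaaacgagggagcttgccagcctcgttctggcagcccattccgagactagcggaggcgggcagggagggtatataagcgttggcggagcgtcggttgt
Searched on both strands, within 250 bases before the start, CCAAT occurred in 9 of the 15 windows of the 10 tubulin genes and in 32.01% of all 35116 windows. A gene with several start sites has several windows, which can overlap, and 7 of the 10 genes had a match in at least 1. TGACGTCA, which reads the same on both strands, occurred in 1 of the 15 windows, that of TUBB2A, and in 1.65% of all windows, and TATAAA in the same 1 and in 10.72%. The heat shock element, searched in the same way, occurred in 0 of the 15 windows and in 0.44% of all windows. Another motif searched occurred in 0 of the 15 windows and in 1.03% of all windows. Both were so rare over all windows that their absence from 15 windows says little. These searches describe letters and not binding.

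The genes whose profile over the 8 group means was most like that of TUBA1B were HS1BP3, EIF2B2 and PSMD13, with root mean square differences of 0.037, 0.0387 and 0.0395 on the log2 scale after centring each gene. By this measure TUBA1C ranked 56 of all tested genes, at 0.0784, TUBB 246, at 0.121, TUBB6 1443, at 0.219, and TUBB4B 1755, at 0.238. TUBA1A (0.42, rank 4844), TUBB2A (0.584, rank 7198) and TUBA4A (0.688, rank 8196) lay farther from TUBA1B than the median of 0.402 over all other tested genes. For TUBB the nearest were AP1M1, FSCN1 and ACSL1, at 0.0571, 0.0666 and 0.0734, and TUBA1B (rank 31) was at 0.121, TUBA1C at 0.142, TUBB4B at 0.174, TUBB6 at 0.284 and TUBA1A at 0.409. TUBB2A, at 0.536, and TUBA4A, at 0.581, lay beyond the median of 0.48 for TUBB.

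Scaling by library totals alone shifted all genes in some comparisons, and the tubulin calls kept their direction. The median log2 value over all tested genes moved to 0.18 in S181E and 0.14 in Y396E against WT in control and to 0.15 for arsenite in WT and 0.16 in RQ, and for the difference of response to -0.14 and -0.12. On that scale TUBB was 0.78 and 0.75 above WT in S181E and Y396E control and TUBA4A 1.65 and 1.71. Among all called genes the share that was higher went from 50.4% to 83.6% in S181E control, from 50.5% to 81.1% in Y396E control, from 70.0% to 38.3% in RQ control, from 50.3% to 61.6% for arsenite in WT and from 50.9% to 62.0% in RQ. It went from 38.7% to 55.9% in S181E arsenite and from 89.9% to 77.7% in RQ arsenite. For the difference of response it went from 42.6% to 13% in S181E and from 48.1% to 18.2% in Y396E.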

How the data were processed

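RNA of 26 libraries of HCT116 cells was analysed: 24 of the mCherry-IGF2BP1 populations (8 groups of 3) and 2 of parental cells, which stayed outside the fit. The authors deposited raw read counts per gene for each library. Per the study's methods and the file headers, poly(A) RNA gave directional libraries and single reads of 100 bases, converted with bcl2fastq 2.20.0.422, checked with FastQC 0.11.9, aligned to hg38 with STAR 2.7.11b and counted on exons by strand with featureCounts of Subread 2.0.6 on GENCODE release 46. Reads at several places or in several genes were not counted, which lowers the values of near-identical tubulin genes.

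Symbols came from GENCODE release 44, which matched 62541 of 63086 identifiers, all on the same chromosome. Protein-coding genes above 10 CPM in at least 12 of 24 libraries were kept (9099). TMM factors were 0.865 to 1.09. Tests were edgeR 4.0.16 quasi-likelihood tests (R 4.3.3) with 1 mean per group, 16 residual degrees of freedom and Benjamini-Hochberg adjustment over all tested genes, called at an adjusted p under 0.05 and a fold above 1.2. A ± beside a log2 value is its SE, and beside a level the SD of 3 libraries. RPKM divides CPM by the exon length of the gene. The p-values measure the spread between dishes of 1 population. The test was also run on simulated counts after the fits, with results not given here. Alternatives were DESeq2 1.42.0, other scaling, filters, fold thresholds and designs, and each library left out. The named genes were the 10 tubulin genes, the largest rise and fall of each pathway list with arsenite in WT, TTC5, SCAPER, and the 3 nearest profiles of TUBA1B and TUBB. The genes and the lists were chosen with earlier results of these data known.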

Additional observations from a re-analysis of the deposited data

Results flagged for a closer look

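The rise of TUBB and TUBB4B with arsenite differed between populations by a test of the difference itself (edgeR quasi-likelihood test). Relative to WT, the log2 response in S181E differed by -0.30 for TUBB and -0.31 for TUBB4B. In Y396E it differed by -0.34 for TUBB and -0.38 for TUBB4B. In these 4 cases both genes rose in WT and in the mutant. The comparisons share the WT libraries, and without WT control replicate 2 only TUBB4B in Y396E, at -0.33, was still called.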

How the results depend on the processing

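Of 4080 log2 values of the 8 tested genes under 34 alternatives in 15 comparisons, 4002 kept their side of the call, 37 lost it, 41 gained it and 0 called values changed sign. With a fold above 1.5, 4 members were called for arsenite in S181E and in Y396E, 2 and 3 for S181E and Y396E against WT in control, 1 for each with arsenite, and 0 for both differences of response. With no fold threshold, 2 were called for RQ against WT in control and 7 for Y396E against WT with arsenite. The share of all tested genes called at these other fold thresholds is not given, so the counts are not read as particular to the tubulin genes. With library totals only, 2 were called for RQ against WT in control, beside 128 of 9099 tested genes. For the difference of response in Y396E 5 were called, beside 2222.

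Leaving out each library in turn gave 7 to 7 members for arsenite in each of the 4 populations and for S181E against WT in control. It gave 0 to 3 for RQ and 7 to 8 for Y396E against WT in control, and 0 to 0 for RQ, 4 to 7 for S181E and 3 to 7 for Y396E with arsenite. The differences of response gave 0 to 1 for RQ, 0 to 2 for S181E and 1 to 4 for Y396E. Y396E against S181E gave 0 to 0 in both treatments. No share over all tested genes stands beside these counts. The replicate block changed no count, with 7 members for arsenite in WT. Same-numbered libraries had a median r of 0.0542 and a highest r of 0.525, with 22 of 84 pairs over 0.1. Differently numbered pairs had a median r of -0.0377. The numbers were not taken to pair the samples, and an effect shared by some same-numbered libraries was not tested further.

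In WT control, dividing by the number of 100-base stretches in no other gene gave RPKM of 4.58 for TUBA1A, 882 for TUBA1B, 129 for TUBA1C, 29.2 for TUBB2A, 0.355 for TUBB2B, 0.483 for TUBB3, 269 for TUBB4B and 46.1 for TUBB6, with an alpha sum of 1022 and an alpha to beta ratio of 1.76. Library totals only gave 3.86 for TUBA1A, 481 for TUBA1B, 104 for TUBA1C, 5.56 for TUBA4A, 227 for TUBB4B and 45.5 for TUBB6, with an alpha sum of 595. The order of the 10 genes was the same in both.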
